A study of Mus musculus with 8 samples.

Results

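The 55 genes described here make collagen and the rest of the extracellular matrix, and they were followed in RNA-seq of cultured mouse blood progenitors with and without *Pcgf1*. All 43 symbols of the form Col, number, a, number were taken, with 12 further matrix genes (*Fn1*, *Sparc*, *Lox*, *Loxl1*, *Loxl2*, *Postn*, *Dcn*, *Lum*, *Bgn*, *Fbn1*, *Thbs1* and *Tnc*), out of 23284 symbols in both deposited tables. *Pcgf1* encodes a subunit of a variant Polycomb repressive complex that places ubiquitin on histone H2A. There were 8 libraries, 2 control (*Pcgf1* fl/fl) and 2 KO (*Pcgf1* -/-) of each of 2 cell types from bone marrow of B6CBAF1/J mice. IdHPCs are progenitors held in culture by Id3, and LMPPs are lymphoid-primed multipotent progenitors. Per the labels both were grown on TSt-4 cells, a mouse stromal feeder line, with IL-7, SCF and Flt3L. Deletion was by ERT2-Cre and 4-OHT, which the LMPP controls also received, while for the control IdHPCs no such treatment is stated. Forced Id3 activity and growth on a feeder layer limit IdHPCs as a model of progenitors in the animal.

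Collagens are trimers of α chains. Fibrillar collagens such as types I, III and V form the tensile fibres of connective tissue, type IV forms the sheet of basement membranes, type VI forms beaded filaments, and fibril-associated collagens sit on the surface of fibres. Fibroblasts and other stromal cells are their main source in bone marrow, and blood progenitors meet the matrix mostly as a surface to bind.

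Values are CPM, read counts that the authors scaled to the total of each library, and each was a whole multiple of 1 read. Libraries held 15717645 to 25292626 reads on distinct exon intervals in IdHPCs and 9611759 to 12569296 in LMPPs. Reads on *Pcgf1* exon intervals 2 to 7 numbered 193 and 173 in the control IdHPCs and 15 in each KO library. In LMPPs, control 1 by label had 84 reads there and KO 1 had 76, but control 2 and KO 2 both had 0, which goes against 2 of the labels. For LMPPs, control 1, control 2, KO 1 and KO 2 stand for the libraries labelled so, and values are given by library because the comparison rests on those labels. The study describes the replicates as independent without naming the animals or cultures, so p-values measure the spread between these libraries.

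In IdHPCs, matrix genes were abundant and most had a higher CPM in the KO libraries. Of the 55 genes, 11 had 0 reads in all 4 libraries, and 36 reached 1 CPM in at least 1 library and were tested. In such bulk libraries a larger share of stromal cells and more matrix RNA per cell cannot be told apart. *Sparc* and *Col1a2* rose, by limma on log2(CPM + 1) with Benjamini-Hochberg adjustment over 12272 genes, and 0 members fell. Of all genes tested, 0.244% were called higher and 0.253% lower. In 23 of the 36 members (63.9%) both KO libraries lay above both controls, against 25.6% of all genes, and in 2 (*Col11a2* and *Col15a1*) both lay below, against 21.4%. At an unadjusted p under 0.05, 20 members were higher and 1 lower, against 9.18% and 5.31% of all genes. The median log2 fold change was 0.69 over the 36 members and 0.01 over all genes tested. *Col10a1* and *Col18a1* passed the filter on low values only through KO libraries and *Col15a1* only through a control. The 34 members with a mean of 1 CPM or more, *Col18a1* among them, had a median of 0.71.

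**Figure D1:**
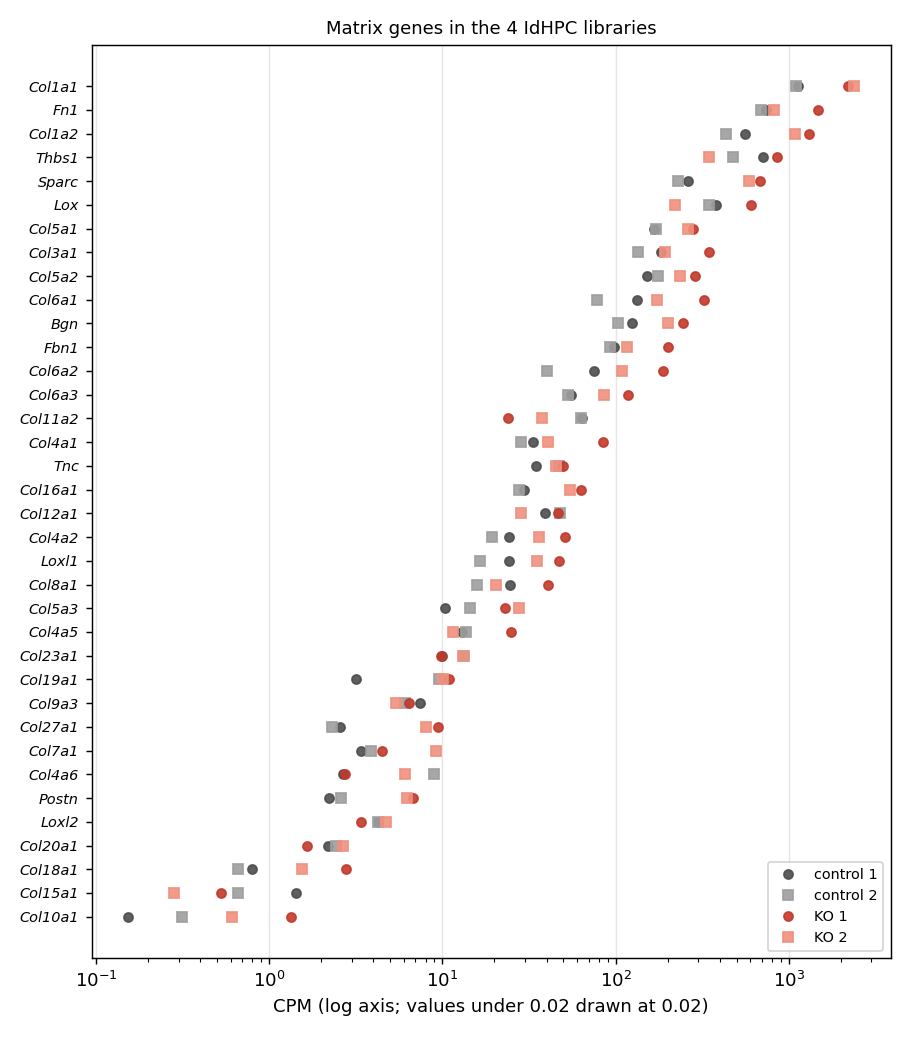
CPM (log axis) of the 36 matrix genes tested in IdHPCs, ordered by mean, with 1 point for each of the 2 control and 2 KO libraries. KO 1 was the highest library for 25 of the 36 genes, a count that was not made over all genes. Among the 20 highest only *Thbs1*, *Lox*, *Tnc* and *Col12a1* have overlapping groups.

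The fibrillar collagens made up the largest part of the signal. *Col1a1*, the α1 chain of type I collagen, had 1131 and 1100 CPM in the controls against 2185 and 2386 in the KO libraries. Its groups did not overlap, and its log2 fold change of 1.03 ± 0.21 (SE) had an adjusted p of 0.0650 (limma), just beyond the threshold of 0.05. *Col1a2*, the partner α2 chain, stood at 562 and 434 CPM in the controls and at 1311 and 1087 in the KO libraries. It rose by 1.27 ± 0.23 on the log2 scale (limma, adjusted p = 0.0455). Per kb of transcript, the *Col1a1* level was 1.81 and 2.29 times that of *Col1a2* in the controls and 1.50 and 1.98 times in the KO libraries, ranges that overlap. Type I procollagen is made of 2 α1 chains and 1 α2 chain.

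*Col3a1*, the type III chain of loose connective tissue, had 182 and 134 CPM in the controls, 347 in KO 1 and 194 in KO 2. The KO 2 value exceeded the higher control by less than the controls differed (log2 fold change 0.73 ± 0.29, limma adjusted p = 0.284). Type V chains, which set fibre diameter, behaved more evenly. *Col5a1* was at 167 and 172 CPM in the control libraries and at 281 and 263 in the KO libraries, and *Col5a2* had 151 and 175 against 287 and 236. Neither passed the adjusted threshold (0.147 and 0.180 by limma), although the groups did not overlap for either. *Col5a3* was lower, at 10.4 and 14.4 CPM against 23.1 and 27.7. *Col27a1*, a fibrillar chain of developing cartilage, had the highest fitted change of all members at 2.57 and 2.29 CPM against 9.45 and 8.09, with a log2 fold change of 1.51 ± 0.28 and an adjusted p of 0.0510 (limma). The log2(CPM + 1) scale understates changes of genes as low as this, and the ratio of its mean CPM was 3.61.

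*Col11a2* went the other way. It encodes the α2 chain of type XI collagen, another cartilage collagen, and had 63.8 and 63.2 CPM in the control IdHPCs and 24.0 and 37.4 in the KO libraries. The log2 fold change was -1.06 ± 0.26 with an adjusted p of 0.0954 (limma), so that it did not pass. Its partner chain *Col11a1* had 0 reads in all 8 libraries, and type II collagen, *Col2a1*, at most 3 reads in any IdHPC library. Reads fell on all 64 exon intervals of *Col11a2*, with 8.93% to 12.2% of them on the interval at the 3′ end. The gene lies at chr17:34176382-34203630 on the plus strand (NCBIM37), downstream of *Rxrb*, which ends at 34175338.

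The members with the clearest rise and the clearest opposite value are shown by the 250 bases before their RefSeq start, placed on NCBIM37 by exact match. That of *Sparc* lies at chr11:55233583-55233832 on the minus strand, and that of *Col11a2* at chr17:34175833-34176082 on the plus strand. Capitals mark a TATAAA or CCAAT on either strand.
Sparc: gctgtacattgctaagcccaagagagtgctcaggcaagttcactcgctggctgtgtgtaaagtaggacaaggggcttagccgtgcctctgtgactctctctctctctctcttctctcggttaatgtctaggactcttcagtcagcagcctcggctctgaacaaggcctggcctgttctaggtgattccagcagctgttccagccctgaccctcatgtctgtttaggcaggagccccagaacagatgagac
Col11a2: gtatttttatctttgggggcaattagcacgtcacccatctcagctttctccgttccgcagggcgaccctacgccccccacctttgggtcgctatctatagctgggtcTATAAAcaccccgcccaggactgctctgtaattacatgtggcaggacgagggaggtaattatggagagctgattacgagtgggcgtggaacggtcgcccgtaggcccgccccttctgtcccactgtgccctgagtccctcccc
The *Col11a2* stretch held 1 TATAAA, 143 bases before the start, and 14 CG dinucleotides, while that of *Sparc* held neither letter group and 4 CG dinucleotides. Over the same length TATAAA was in 12.4% and CCAAT in 33.8% of 32851 promoters. Of 55 members, 40 matched the RefSeq promoter table, and their 45 promoters held TATAAA in 8 cases and CCAAT in 13, or 17.8% and 28.9%. Such a match describes letters and no binding.

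Among beaded-filament and basement-membrane collagens, *Col6a1*, *Col6a2*, *Col6a3*, *Col4a1* and *Col4a2* were also higher in KO 1, with KO 2 between KO 1 and the controls. The type VI chains *Col6a1*, *Col6a2* and *Col6a3* are assembled together into 1 filament. *Col6a1* had 134 and 77.9 CPM in the controls, 323 in KO 1 and 173 in KO 2. *Col6a2*, its neighbour on chromosome 10, had 74.7 and 40.1 CPM against 187 and 109. Both had the lower value in control 2 and the higher in KO 1, so that the spread within groups was wide, with log2 fold changes of 1.20 ± 0.33 and 1.37 ± 0.33 and adjusted p of 0.120 and 0.0917 (limma). *Col6a3* had 55.6 and 53.4 CPM in the controls, 118 in KO 1 and 85.6 in KO 2 (adjusted p = 0.115, limma). *Col6a6* had 0 reads in all 8 libraries, and *Col6a4* and *Col6a5* stayed under 1 CPM.

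*Col4a1* and *Col4a2*, the general basement-membrane chains, are transcribed away from each other from starts that overlap at chr8:11312805-11312826 (NCBIM37). *Col4a1* had 33.2 and 28.3 CPM in the control IdHPCs, 84.6 in KO 1 and 41.0 in KO 2. *Col4a2* had 24.2 and 19.2 CPM in the controls, 51.2 in KO 1 and 36.2 in KO 2. Neither passed by limma (adjusted p = 0.219 and 0.116). The tissue-restricted chains *Col4a3* and *Col4a4*, known from the glomerulus, were under 1 CPM in every IdHPC library. *Col4a5* had 24.9 CPM in KO 1 and 11.6 in KO 2, and a mean of 13.3 ± 0.464 (SD, n = 2) in the controls, and *Col4a6* ranged from 2.66 to 8.91 with both extremes in the controls. *Col8a1*, a short network chain of vessel walls, had 24.7 and 15.9 CPM against 41.0 and 20.3.

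Among the fibril-associated collagens the directions were mixed. *Col16a1*, which binds integrins and fibres in many tissues, had 29.4 and 27.7 CPM in the controls against 63.2 and 54.8 in the KO libraries (log2 fold change 1.02 ± 0.22, limma adjusted p = 0.0743). *Col12a1*, by contrast, had 39.2 and 48.0 CPM in the controls against 46.3 and 28.4. *Col20a1* and *Col9a3* differed between groups by less than their libraries did, and *Col19a1* had 3.15 and 9.57 CPM in the controls against 10.9 and 10.1. The 3′ end of *Col9a3* meets a gene on the other strand in the annotation, and whether the counting used strand is not stated. *Col7a1*, the anchoring fibril of skin, stood at 3.40 and 3.87 CPM in the controls and at 4.49 and 9.18 in the KO libraries. *Col18a1* and *Col15a1*, the proteoglycan collagens that release endostatin-like fragments, were low in IdHPCs, *Col18a1* at 0.796 and 0.659 CPM against 2.77 and 1.55 and *Col15a1* at 1.44 and 0.659 against 0.527 and 0.282. The transmembrane collagen *Col23a1* had 9.92 and 13.4 CPM against 9.80 and 13.2, and 50.0% to 54.5% of its reads lay on its last interval.

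Of 6 glycoproteins tested, 5 had a log2 fold change above 0, as did the small proteoglycan *Bgn*, against 50.5% of all genes. *Sparc* (osteonectin), a calcium- and collagen-binding secreted protein, was at 264 and 230 CPM in the control libraries and at 680 and 588 in the KO libraries. It rose by 1.36 ± 0.21 on the log2 scale, the lowest adjusted p of the members (0.0275, limma). *Bgn* (biglycan) had 125 and 103 CPM in the controls against 245 and 200 in the KO libraries, with a log2 fold change of 0.96 ± 0.22 and an adjusted p of 0.0833 (limma). *Postn* (periostin), which helps cross-link collagen, was low, with 2.20 and 2.61 CPM in the controls and 6.78 and 6.26 in the KO libraries (adjusted p = 0.0997, limma). For *Sparc*, *Bgn* and *Postn* the groups did not overlap.

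*Fn1* (fibronectin), which cells bind through integrins, had 740 and 688 CPM in the controls, 1476 in KO 1 and 819 in KO 2. *Fbn1* (fibrillin, of elastic microfibrils) had 97.3 and 92.6 CPM in the controls, 201 in KO 1 and 117 in KO 2. In both the KO libraries differed from each other by more than KO 2 differed from the controls, and neither passed (limma adjusted p = 0.342 and 0.270). *Tnc* (tenascin), a glycoprotein of wounds and tendons, stood at 34.5 and 47.0 CPM in the controls and at 49.9 and 45.5 in the KO libraries. *Thbs1* (thrombospondin), an adhesive glycoprotein also stored in platelets, had 714 and 476 CPM in the controls, 851 in KO 1 and 346 in KO 2, and its log2 fold change of -0.10 ± 0.37 had no stable sign. *Dcn* and *Lum*, proteoglycans typical of fibroblasts, had 0 reads in all 8 libraries, which at a floor of 3 reads allows up to 0.0860 to 0.141 CPM in an IdHPC library.

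The cross-linking oxidases did not share a direction. *Lox*, which oxidises lysines of collagen and elastin, had 380 and 346 CPM in the controls, 606 in KO 1 and 220 in KO 2, the highest and the lowest value both in KO libraries (log2 fold change 0.01 ± 0.38, limma adjusted p = 0.992). *Loxl1*, needed for elastic fibres, had 24.2 and 16.6 CPM against 46.9 and 35.1 (limma adjusted p = 0.124). *Loxl2* stayed between 3.41 and 4.71 CPM in all 4 libraries. For these 3 enzymes together with the fibres they act on, the groups overlapped for *Lox* and *Loxl2* and not for *Loxl1*, *Col1a1* and *Col1a2*.

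**Figure D2:**
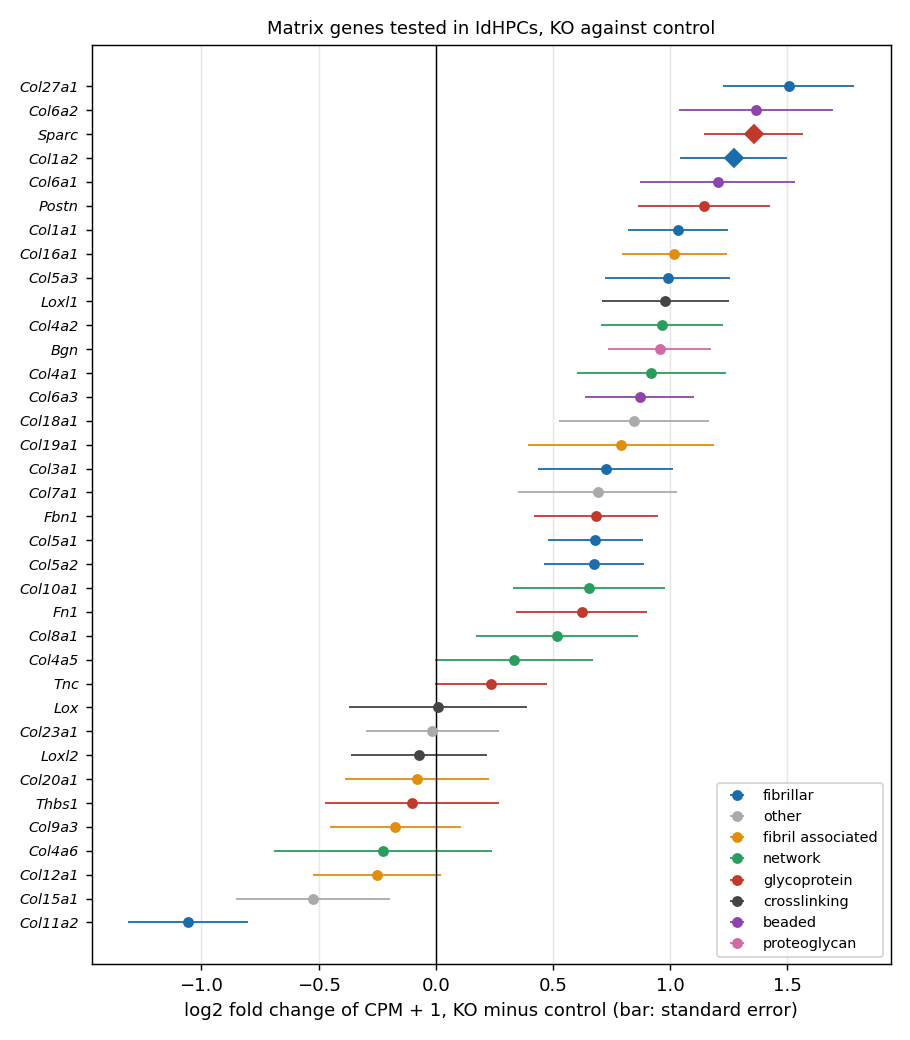
Log2 fold change of CPM + 1, KO minus control, for the 36 matrix genes tested in IdHPCs (bars, standard error, 2 libraries a group), coloured by role. Diamonds are the genes with an adjusted p under 0.05, *Sparc* at 1.36 and *Col1a2* at 1.27, and *Col11a2* has the lowest value at -1.06.

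The number of members called depended on the test. On the recovered reads the edgeR exactTest called 14 members higher and 1 lower, against 3.76% and 1.32% of all genes, and DESeq2 called 13 and 1, against 2.79% and 1.25%. The edgeR quasi-likelihood test called 3 higher (*Sparc*, *Col1a2* and *Col27a1*) and 0 lower, against 0.627% and 0.391%. *Col1a1*, *Col16a1*, *Bgn*, *Postn*, *Loxl1*, *Col4a2* and all 3 tested type VI chains were among those called by both exactTest and DESeq2, as was *Col11a2* in the lower direction (adjusted p = 0.0153 by exactTest and 0.0107 by DESeq2). *Fn1*, *Lox*, *Thbs1*, *Tnc*, *Col3a1* and *Fbn1* were called by none of the 4 tests. With 1 library left out its group has 1 library, which is assumed to vary like the other group, so the spread comes from the 2 libraries of that group. Without KO 2, limma called 14 members higher and 1 lower, against 1.34% and 0.486% of all genes. Without KO 1 it called 6 and 0, against 1.83% and 4.66%. Without control 2 it called 0 in either direction, against 0% and 0.123%, with 15 members higher at an unadjusted p under 0.05, against 3.82%. *Col1a2* also missed the threshold without control 1.

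If the members had moved by 1 factor per library, each gene's ratio between a KO and a control library would equal that of the sum of all members. The summed level of the 55 genes was 5114 and 4471 CPM in the control IdHPCs, 9615 in KO 1 and 7231 in KO 2. The sum in KO 1 was 1.88 times that in control 1 and 2.15 times that in control 2, and the sum in KO 2 was 1.41 and 1.62 times. Of 36 members with at least 30 reads over KO 1 and control 1, the exact binomial 95% interval of the gene's own ratio held 1.88 for 4, lay above it for 18 and below it for 14. Over all 6 pairs of IdHPC libraries 38 of 211 intervals (18.0%) held the ratio of the sum, and between the 2 controls 10 of 35 did. Intervals and floors cover counting error only. With counting error alone allowed, fewer members held the ratio of the sum than lay off it in each of the 6 pairs, the pair of controls included. In the KO 1 to control 1 pair 22 of the 36 members lay within 1.5-fold of the factor.

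*Sparc*, *Thbs1*, *Lox* and *Col11a2* lay off the ratio of the sum in most pairs. *Sparc* had a ratio of 2.58 (2.51 to 2.65) between KO 1 and control 1 and 2.23 (2.17 to 2.29) between KO 2 and control 1, above the sum in both. *Thbs1* had 1.19 (1.17 to 1.21) and 0.485 (0.472 to 0.498), below it in both, and *Lox* had 1.59 (1.56 to 1.63) and 0.579 (0.560 to 0.599). *Col11a2* had 0.376 (0.345 to 0.411) and 0.586 (0.540 to 0.636). *Col3a1* at 1.91 (1.84 to 1.97) held the factor in the first of these pairs and, at 1.06 (1.02 to 1.11), lay below it in the second. Of the variance of gene-centred log2 CPM over 34 members with 100 or more reads, the first component took 74.6%, with KO 1 and KO 2 on 1 side and both controls on the other, and 1 common level per library accounted for 38.6%. In all 11950 genes with as many reads, the first component took 57.5%, with the same split of the libraries, and a common level 1.31%. Each library was scaled to its total, which keeps a common level over all genes small by construction. The 1.31% is therefore no background for the 38.6%.

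As shares of the members' reads, *Col1a1* took 22.1% and 24.6% in the controls, 22.7% in KO 1 and 33.0% in KO 2. *Sparc* took 5.16% and 5.14% in the controls, 7.07% in KO 1 and 8.13% in KO 2, so that its share was higher in both KO libraries. *Thbs1* took a lower share in both, with 14.0% and 10.6% in the controls against 8.86% in KO 1 and 4.79% in KO 2. *Lox* took 7.44% and 7.75% in the controls and 6.30% and 3.05% in the KO libraries.

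**Figure D3:**
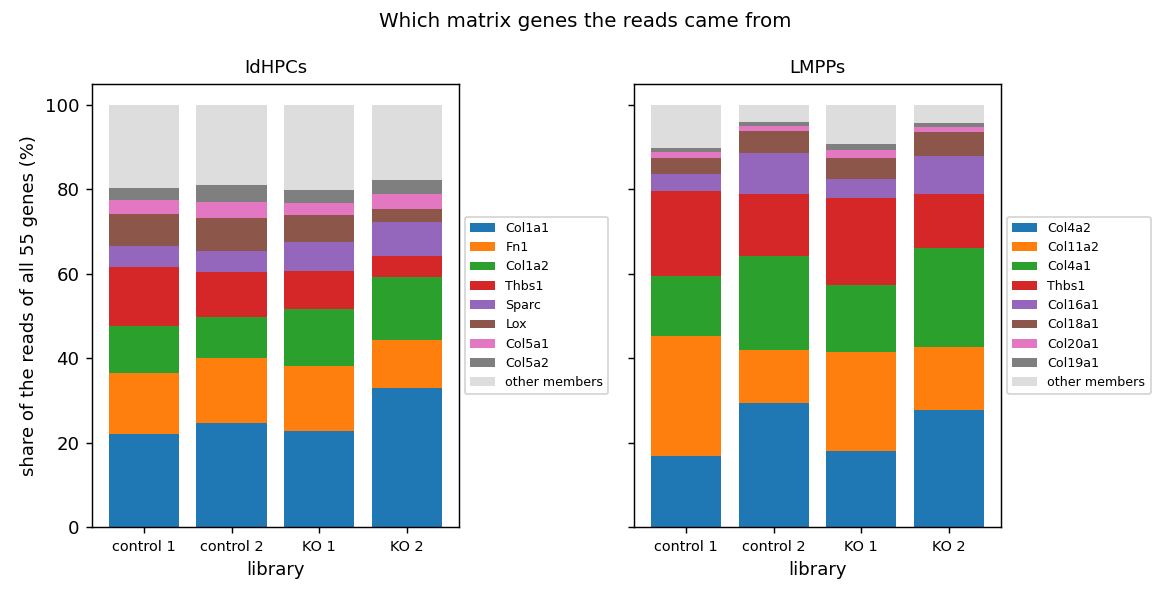
Share (%) of the reads of all 55 matrix genes taken by the 8 most abundant in each cell type and by the others (grey), by library. In IdHPCs *Col1a1* takes 22.1% to 33.0%, while in LMPPs *Col4a2*, *Col11a2*, *Col4a1* and *Thbs1* lead.

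KO 2 also differed in where along a gene its reads lay. The share of a gene's reads on the exon interval at its 3′ end was highest in KO 2 for 31 of the 36 members tested, with a median of 23.4% there against 10.8% to 12.4% in the other 3 libraries. The same count was not made over all genes, so it is not shown to be a trait of the matrix genes rather than of the whole library. *Thbs1* had 27.4% and 30.7% of its reads on that interval in the controls, 27.6% in KO 1 and 52.0% in KO 2. On that interval alone its level was 195 and 146 CPM in the controls, 235 in KO 1 and 180 in KO 2, so that the deficit of KO 2 lay in the other intervals. *Fn1* had 5.84%, 6.51%, 5.32% and 18.0%, and on that interval 43.2 and 44.8 CPM in the controls, 78.5 in KO 1 and 148 in KO 2. *Lox*, in contrast, had 138 CPM there in KO 2 against 150 and 163 in the controls. With the first and last interval of every gene left out, 0 members were called by limma, against 0% of all genes higher and 0.0288% lower, with 15 members higher at an unadjusted p under 0.05, against 4.34%. *Sparc* and *Col1a2* then had log2 fold changes of 1.19 and 1.24. The part of this difference between libraries in the values of KO 2 was not tested further.

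**Figure D4:**
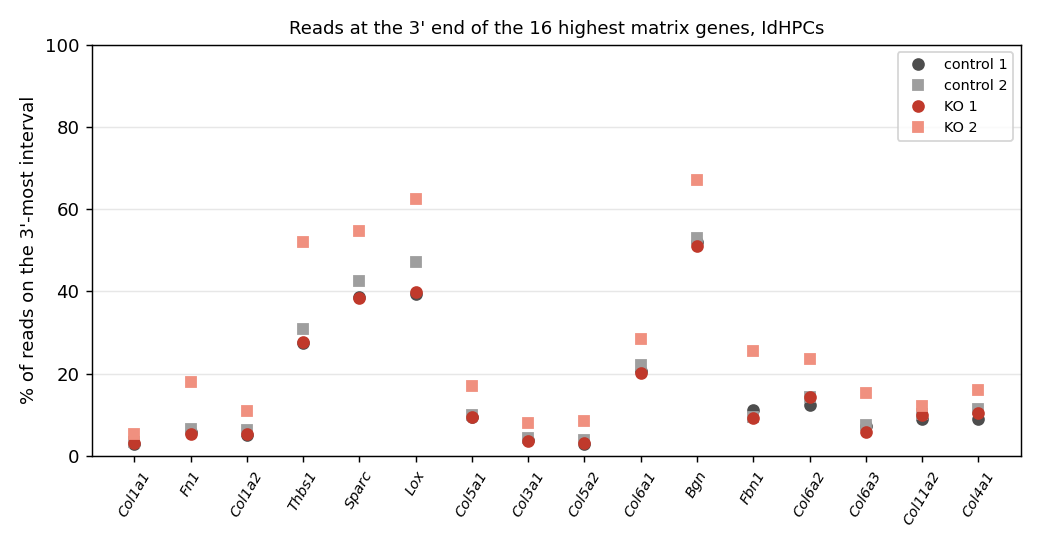
Share (%) of a gene's reads on its exon interval at the 3′ end in the 4 IdHPC libraries, for the 16 matrix genes with the highest mean CPM. KO 2 lies highest for each of them, at 52.0% for *Thbs1* where the other libraries have 27.4% to 30.7%.

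Most stromal genes outside the matrix also had higher values in the KO IdHPCs. The list of 20 such genes summed to 671 and 571 CPM in the controls, 1278 in KO 1 and 812 in KO 2, ratios of 1.90 and 2.24 for KO 1 and 1.21 and 1.42 for KO 2. All 20 were tested, with a median log2 fold change of 0.86, and both KO libraries lay above both controls for 14 and below for 1, against 25.6% and 21.4% of all genes. Among the 14, *Vcam1* and *Twist2* passed the filter on low values only through KO libraries, so their place in the count and in the median depends on that filter. By limma 0 of the 20 were called, and by exactTest 8 were higher and 1 lower, against 3.76% and 1.32%. *Cxcl12*, the stromal chemokine that retains progenitors in marrow, had the highest mean of the list with 134 and 64.3 CPM in the controls, 545 in KO 1 and 224 in KO 2. *Thy1* had 206 and 178 against 202 and 198, and *Ctgf*, a matricellular gene, had 65.0 and 106 against 38.2 and 28.8. Of the list, *Pdgfra*, *Pdgfrb* and *Prrx1* were at 4.30 CPM or more in every IdHPC library, and none of the 20 was at 0. Other genes of the list were lower, with *Vcam1* at 0.704 and 0.430 CPM, *Twist2* at 0.949 and 0.430 and *Lepr* at 1.50 and 0.860 in the controls. *Pdgfrb* was not particular to IdHPCs, as it had 35.1 to 56.8 CPM in the LMPP libraries.

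Markers of other cell types were also counted in IdHPCs. The 9 macrophage markers summed to between 9.03 and 18.6 CPM and the 8 megakaryocyte markers to between 3.04 and 5.65, with *Pf4* at 0. Of 7 endothelial markers only *Pecam1* was tested, and *Cdh5*, *Kdr*, *Emcn* and *Tie1* were at 0. The 8 progenitor markers, led by *Flt3* and *Ikzf1*, summed to 1703 and 2166 CPM in the controls and 1877 and 1500 in the KO libraries. By limma 0 genes of these 4 lists were called, and by exactTest 1 macrophage and 1 progenitor marker were higher, against 0.244% and 3.76% of all genes called higher by these tests. Single markers differed from their sums. *Cd34*, a sialomucin of early progenitors, stood at 108 and 105 CPM in control IdHPCs against 247 and 177 in KO 1 and KO 2, and *Lyz2*, the lysozyme of myeloid cells, 1.44 and 0.888 against 4.35 and 2.78. *Ptprc* (CD45), on all nucleated blood cells, had 258 and 327 CPM against 218 and 159, and 3 of the 8 progenitor markers had both KO libraries below both controls, against 21.4% of all genes. Their part in the matrix values was not tested.

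Genes that process, bind or turn over collagen were counted by list. Of 16 genes for collagen folding and trimming, all were tested, 2 rose and 0 fell by limma, against 0.244% and 0.253% of all genes, and their median log2 fold change was 0.45. *Pcolce*, which enhances cleavage of the procollagen C-propeptide, was at 46.0 and 28.6 CPM in the control libraries and at 125 and 122 in the KO libraries and rose by 1.74 ± 0.26 (adjusted p = 0.0224, limma). *Serpinh1* (HSP47), the collagen chaperone of the endoplasmic reticulum, had 65.6 and 45.7 CPM against 140 and 141 and rose by 1.35 ± 0.24 (adjusted p = 0.0408, limma). The highest of this list, *P4hb*, a subunit of prolyl hydroxylase used in every cell, had 477 and 531 CPM against 573 and 612 without passing, and *Ppib*, a cyclophilin, 150 and 141 against 160 and 201. Without control 2 neither *Pcolce* (log2 fold change 1.40) nor *Serpinh1* (1.09) passed.

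Of 12 matrix proteases and inhibitors, 7 were tested with 0 called by limma and 4 higher by exactTest, which called 3.76% of all genes higher and 1.32% lower, also the background of the next 2 lists. Their median was 1.16, led in level by *Timp3* at 332 and 208 CPM against 459 and 225 and by *Timp2*, with 1599 and 1143 reads in the controls, 3715 in KO 1 and 1630 in KO 2 (130 and 76.7 CPM in the KO libraries). *Mmp13*, among the 7 tested, passed the filter on low values only through KO 1. Of 15 laminins and other basement-membrane genes, 11 were tested with 0 called by limma and 2 higher by exactTest, and their median was 0.19. *Lamc1* had 83.6 and 98.1 CPM against 80.2 and 54.7, and *Hspg2* (perlecan) 43.4 and 45.6 against 96.9 and 63.1. Of 10 collagen receptors, 8 were tested with 0 called by limma and 1 higher by exactTest. *Itgb1*, the β1 integrin chain, had 173 and 187 CPM against 233 and 161.

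In LMPPs most matrix genes were near 0. Of the 55 genes 31 had at most 3 reads in every LMPP library, 12 of them 0 in all 4, and 15 reached 1 CPM and were tested. *Col1a1* had 2, 2, 1 and 0 reads and *Col1a2* had 4, 1, 6 and 0 in control 1, control 2, KO 1 and KO 2. *Col3a1*, *Col6a1*, *Postn* and *Tnc* had 0 in all 4, *Sparc* had 3 to 7 reads and *Lox* 1 read in all. *Col1a1*, *Col1a2*, *Col3a1*, *Sparc* and *Lox* were among the 8 most abundant members in IdHPCs, where *Col1a1* had 36936 reads or more in each library. The 2 tables were normalized separately, so no test was made between cell types. The 20 stromal genes outside the matrix summed to 45.9 to 62.0 CPM in LMPPs, and 13 of them had at most 3 reads in every library. *Pdgfrb*, a growth factor receptor, made up most of that sum, with 35.1 and 56.8 CPM in control 1 and control 2 and 35.8 and 48.8 in KO 1 and KO 2.

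By label, 0 of the 15 members were called in LMPPs by limma, edgeR exactTest, edgeR quasi-likelihood or DESeq2, against 0% of 12136 genes. At an unadjusted p under 0.05, 0 members and 1 gene (0.00824%) passed by limma, higher in the KO label. The median log2 fold change of the 15, libraries labelled KO against libraries labelled control, was 0.03, and -0.000684 over all genes. Between library pairs the median difference of the members from control 1 was 0.22 for KO 1 and 0.24 for KO 2, but from control 2 it was -0.10 and -0.03. Both KO libraries lay above both controls for 2 members (*Col20a1* and *Col9a3*) and below for 1 (*Loxl2*), against 5.92% and 6.25% of all genes.

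The 15 members tested in LMPPs were all tested in IdHPCs too. *Col4a2* had the highest mean in LMPPs, with 23.1 CPM in control 1, 79.8 in control 2, 27.2 in KO 1 and 70.3 in KO 2. Its partner *Col4a1* had 19.5, 59.7, 23.7 and 59.1 CPM in the same order. Both were high in control 2 and KO 2, the libraries with 0 reads on *Pcgf1* intervals 2 to 7, and low in the other 2. Per kb of transcript, the level of *Col4a1* was 0.730 to 0.849 times that of *Col4a2* in the 4 LMPP libraries, and 1.10 to 1.61 times in the IdHPC libraries, ranges that do not overlap.

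*Col16a1* had 5.46, 26.0, 6.52 and 22.9 CPM in control 1, control 2, KO 1 and KO 2, and *Col18a1* had 5.09, 14.6, 7.48 and 14.2, the same order of libraries as the type IV chains. *Col11a2* had 38.6, 33.9, 34.7 and 37.7 CPM, its libraries within a narrow range, although its levels in control IdHPCs had been above those in KO IdHPCs. *Thbs1* had 27.4, 39.7, 30.9 and 32.5 CPM, again with control 2 highest and control 1 lowest but over a narrower range. *Col27a1* had 1.18, 1.84, 1.17 and 1.97 CPM. *Col20a1*, *Col19a1*, *Loxl2*, *Col9a3*, *Col7a1*, *Fn1*, *Fbn1* and *Col23a1* ranged from 0.173 CPM (*Col23a1* in control 2) to 3.33 (*Col20a1* in KO 2).

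**Figure D5:**
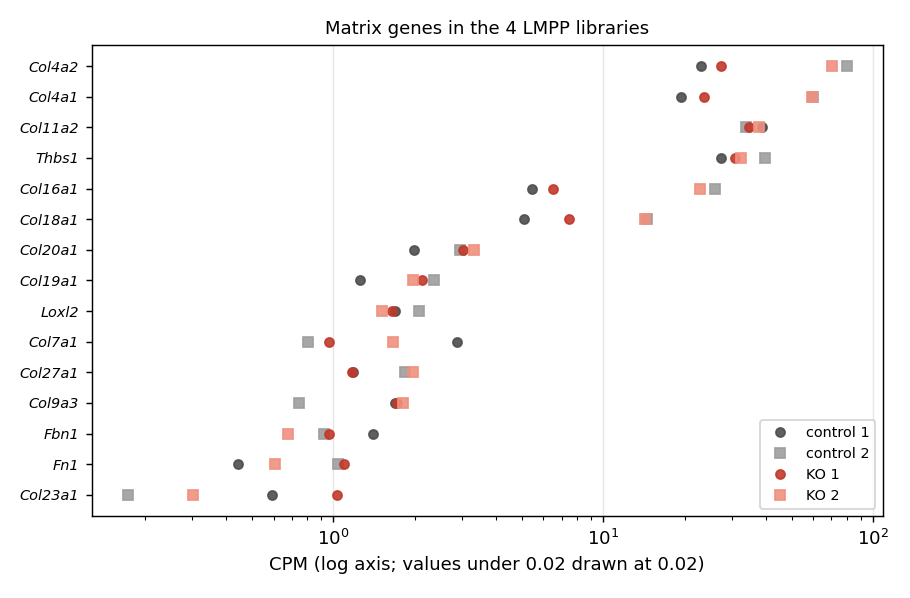
CPM (log axis) of the 15 matrix genes tested in LMPPs, with 1 point for each of the 4 libraries as labelled. *Col4a1*, *Col4a2*, *Col16a1* and *Col18a1* have their control 2 and KO 2 points above those of control 1 and KO 1, and *Col11a2* has its 4 points together.

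The 1-factor description was also applied to LMPPs. The members summed to 136 CPM in control 1, 270 in control 2, 149 in KO 1 and 253 in KO 2. Between KO 1 and control 1 the intervals of 11 of 13 members held the ratio of the sum, 1.10, and between KO 2 and control 2 those of 8 of 12 held 0.937. Between control 2 and control 1, by contrast, 4 of 13 held 1.98, with *Col16a1* at the highest ratio of 4.76 and *Col7a1* at the lowest of 0.280. The first component took 94.5% of the variance over 9 members, and it set control 2 and KO 2 against control 1 and KO 1. Over all 11172 genes with as many reads the first component took 80.9%, with the same split of the libraries.

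Markers of macrophages and megakaryocytes also differed between these libraries. The 9 macrophage markers summed to 324 and 322 CPM in control 1 and KO 1 and to 139 in both control 2 and KO 2. *Csf1r* was at 114 CPM in control 1 and 118 in KO 1, against 52.9 in control 2 and 49.2 in KO 2. The 8 megakaryocyte markers summed to 177 and 165 in control 1 and KO 1 and to 263 and 297 in control 2 and KO 2. *Mrc1* was at 3 reads or fewer in every LMPP library, and no megakaryocyte marker was at 0. The part of these cells in the values of the type IV chains was not tested.

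The members detected in LMPPs can be set beside the rest in IdHPCs. The 21 members tested in IdHPCs that stayed under 1 CPM in LMPPs had a median IdHPC log2 fold change of 0.73, from -0.52 (*Col15a1*) to 1.37 (*Col6a2*), with both KO libraries above both controls for 14 and below for 1, against 25.6% and 21.4% of all genes. The 15 that reached 1 CPM in LMPPs had a median of 0.68, from -1.06 (*Col11a2*) to 1.51 (*Col27a1*), with 9 above and 1 below.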

How the data were processed

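Poly(A) RNA was sequenced by the authors, aligned to mm9, counted and deposited as CPM. The study's methods name HISAT2, Rsubread and edgeR, and the submitters' processing notes TopHat2 2.0.13 and edgeR. The deposited CPM tables list 284716 exon intervals under 23284 symbols, with repeats. Intervals equal to the one before within a symbol were counted once, and the rest summed. All CPM values were whole reads (tolerance 0.01). Reads per library and the floor of 3 reads set the precision, and counting error only is covered.

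Groups followed the labels, 2 libraries each. limma 3.58.1 (R 4.3.3) was run per table on log2(CPM + 1) with trend, on genes with 1 CPM in at least 1 library, with Benjamini-Hochberg adjustment. edgeR 4.0.16 and DESeq2 1.42.0 on recovered reads, other filters, scalings, a replicate block and left-out libraries were alternatives. On simulated data with 200 genes changed by a log2 fold of 2, limma recovered 197 of 200 with 6 false calls for IdHPCs (12019 genes) and 198 with 4 false calls for LMPPs (11973 genes). The simulation used a dispersion of 0.02 and a change larger than any limma change of the members. It does not give the recovery of changes as small as theirs. The members, lists and tests were chosen with earlier results of these data known. The genes named are the 12 highest members of each cell type, each called member, each matrix gene that is not a collagen, and members tested in IdHPCs with both KO libraries under both controls. Other members, *Pcolce*, *Serpinh1* and single list genes were named after their values were seen. Transcript lengths and coordinates are of GENCODE vM1 (NCBIM37), using the longest coding transcript.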

Additional observations from a re-analysis of the deposited data

How the results depend on the processing

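The number of IdHPC genes called by limma, 61, varied with the processing and with the libraries fitted, as did the 2 members called. With no filter on low values 0 genes and 0 members were called, with median ratio scaling 103 genes and 3 members, and without the first and last interval 3 genes and 0 members. With a filter of 1 CPM in at least 2 libraries, and with all listed intervals summed, *Sparc* alone of the members was called, and with no trend *Col27a1* alone. The count tests called 624 genes and 15 members (edgeR exactTest), 125 and 3 (edgeR quasi-likelihood) and 496 and 14 (DESeq2). Leaving out 1 library, which leaves the spread to the 2 libraries of the other group, gave 15 to 787 genes and 0 to 15 members, with 0 members without control 2, 6 without KO 1 and 15 without KO 2. The median log2 fold change of the IdHPC members stayed above 0 in each setting run, between 0.54 and 0.95 with 1 library left out, the highest without KO 2. *Lox* changed sign with median ratio scaling (-0.0099), without the first and last interval (-0.30) and with 1 library left out (-0.72 to 0.74), and *Thbs1* with the edgeR exactTest (0.00170), the quasi-likelihood test (0.00182) and 1 library left out (-0.75 to 0.55). *Col8a1* changed sign without the first and last interval (-0.03), and *Col4a5*, *Col4a6*, *Col12a1*, *Col20a1*, *Col23a1* and *Loxl2* did with 1 library left out. The causes were not tested.

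The labels do not say that replicate numbers pair the libraries, and with 2 pairs the data cannot show it. Deviations of same-numbered libraries correlated at 0.147 in IdHPCs and 0.705 in LMPPs across genes. With a replicate block 673 genes and 15 members were called in IdHPCs, and 3 genes and 0 members in LMPPs.

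In LMPPs 0 members were called in every setting run, and the median ran from -0.16 (without control 1) to 0.22 (without control 2). Over pairs of LMPP libraries 52.0% of member intervals held the ratio of the sum, but 30.6% with at least 100 reads over the pair. Depth limits the LMPP values, where 3 reads were worth 0.173 to 0.227 CPM.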
